A study of Mus musculus with 8 samples.

Results

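The mouse Phf11, Trim30 and Schlafen (Slfn) genes form 3 families of paralogs, each arranged as a tandem cluster in the mouse genome. Described here are the 9 genes of these families that stand in the authors' deposited table of differential expression, out of 259 listed genes: Phf11a, Phf11b and Phf11d, Trim30b, Trim30c and Trim30d, and Slfn2, Slfn3 and Slfn4. They were chosen by symbol from that table with their values known, so their folds and p-values are a description and carry no test. The comparison is between mammary epithelial cells that carried UBE1L and cells that carried an empty vector, with 2 libraries on each side. Both kinds of cell were of the FVB strain, are named PyVmT in the series' design, lacked their own Uba7 (knockout) and were primed with IFN (interferon). Both were also given LPS, a bacterial lipid sensed by Toll-like receptor 4, at 100 ng/mL, and the LPS lasted 6 hours. The 4 further libraries, without LPS, were not analysed here. The kind and dose of IFN, the vector's promoter and how many lines were made with each vector were not given in the sources used here. An effect of UBE1L and any other difference between the lines cannot be told apart. The labels do not call the 2 libraries on a side separate cultures, and the deposited p-values may then measure technical spread.

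UBE1L is the enzyme that activates ISG15, a ubiquitin-like protein induced by interferon, for attachment to other proteins. Interferons act through receptors and JAK kinases on STAT and IRF transcription factors. These bind interferon-stimulated response elements near the starts of their target genes, and LPS can feed into the same programme by inducing interferon beta. Phf11 genes encode small nuclear proteins with a PHD zinc finger. TRIM proteins carry a RING, B-box and coiled-coil arrangement and many act as ubiquitin ligases; mouse Trim30a, the best studied of its cluster, restrains Toll-like receptor signalling to NF-kB. Schlafen genes are a rapidly evolving mammalian family first described in mouse thymocytes, with short members (Slfn1 and Slfn2), intermediate ones (Slfn3 and Slfn4) and long ones with a helicase-like part (Slfn5, Slfn8, Slfn9 and Slfn14). Mouse Slfn2 maintains the quiescence of T cells, and mouse Slfn4 is known from myeloid cells.

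All 9 genes were higher with UBE1L, by 1.46-fold (Slfn2) to 2.58-fold (Phf11a) in the authors' deposited table. Among all 259 listed genes, 83.8% were higher, and these 259 are 11.1% of the 2342 genes up to the last rank that the adjusted p-values imply. At an adjusted p (edgeR) under 0.01, 7 of the 9 were higher, against 59.1% of the listed genes, and 6 of the 9 were higher by at least 1 log2 unit, against 19.7%. The median log2 fold of the 9 was 1.17, a 2.25-fold difference, and that of the 216 listed higher genes other than Uba7 was 0.72, both from the authors' deposited table. Since the 9 were taken from that same list, nothing is read from these shares. Uba7, which encodes UBE1L, checks the labels: in the authors' deposited table it was 52.7-fold higher (log2 fold change 5.72). An approximate standard error was derived for each fold by dividing the log2 fold by the square root of its likelihood ratio, because the table holds no value per library. The approximate 95% intervals below follow from it. Abundance is given as CPM, the count scaled to library size, and the number of reads behind a mean CPM is estimated from the depth of about 25000000 reads a sample that the labels state.

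**Figure D1:**
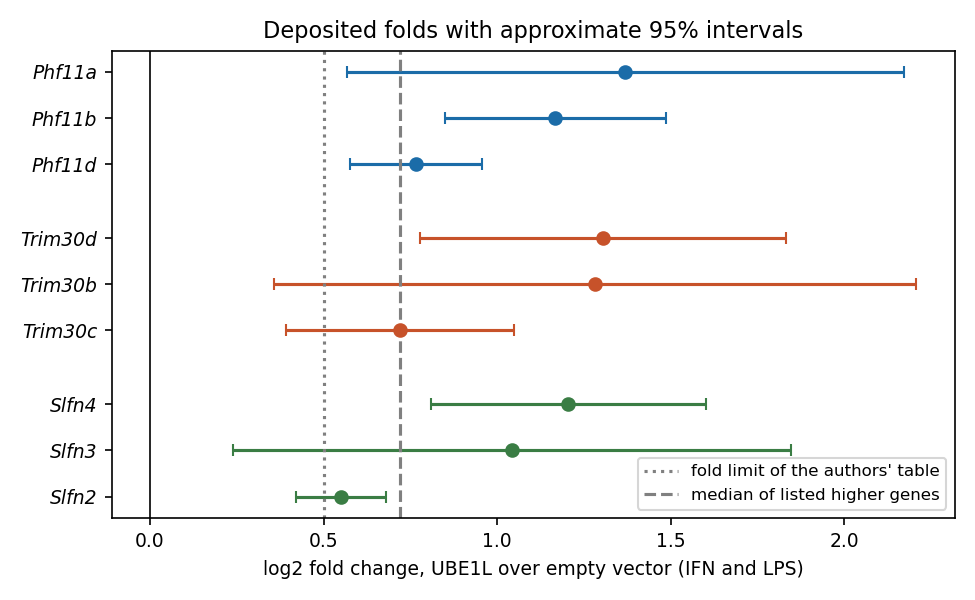
Each point is the deposited log2 fold change of UBE1L over empty-vector cells under IFN and LPS, and each bar its approximate 95% interval; colours separate the Phf11, Trim30 and Schlafen genes. The points run from 0.55 (Slfn2) to 1.37 (Phf11a), and the widest bar, that of Trim30b, spans 0.36 to 2.21, while the dotted line marks the table's fold limit of 0.50 and the dashed line the median of 0.72.

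The Phf11 genes differed by up to 0.60 log2 units in fold and by 16.3 times in read abundance. Phf11d, the most abundant, was 1.70-fold higher with UBE1L, with a log2 fold of 0.77 ± 0.10 (approximate SE) and, by edgeR in the authors' deposited table, an adjusted p of 5.12e-13. Its mean abundance was 4.80 log2 CPM, or 27.8 CPM and roughly 695 reads a library. Phf11b was 2.25-fold higher, at a log2 fold of 1.17 ± 0.16 and, by edgeR in the authors' deposited table, an adjusted p of 7.11e-11, on a mean of 3.32 log2 CPM (9.96 CPM, roughly 249 reads). Phf11a had the largest fold of the 9 genes, 2.58-fold or 1.37 ± 0.41 log2 units with, by edgeR in the authors' deposited table, an adjusted p of 0.00506, but only 1.71 CPM, roughly 42.7 reads a library. Its approximate interval reached from 1.48-fold to 4.51-fold and took in the values of both relatives. The interval of Phf11d, 1.49-fold to 1.94-fold, was the narrowest of the family.

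Phf11a and Phf11b are the most alike pair among the 9. Their proteins, translated from the annotated transcripts, have 293 and 276 residues and are 94.2% identical over 276 aligned positions, against 82.2% and 81.1% for each of them with the 337 residues of Phf11d. In their transcripts, 35.2% of the 50-base stretches of Phf11a and 47.0% of those of Phf11b also occur in another gene, most often in each other (295 stretches, which is 22.6% of Phf11a and 26.0% of Phf11b). Phf11d shares 8.1%. Reads were single and 50 bases long, so part of the reads of all 3 genes cannot be placed by sequence alone. The values of Phf11a and Phf11b are uncertain for this reason, and how far that of Phf11d is was not tested.

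The starts of the same genes are shown because a match to the interferon-stimulated response element (GAAA, 2 bases of any kind and again GAAA, on either strand) lies at the same aligned place in 2 of them. The promoter windows are those of RefSeq on GRCm38.p6, 250 bases before to 50 after the annotated gene start, and the alignment of Phf11a with Phf11b is 98.2% identical over 279 bases. In the 45-base stretches here, the capitals mark the 10 bases of the element or, for Phf11d, the 10 bases aligned with it. The stretches lie on the minus strand at chr14:59341361-59341405 (Phf11b), chr14:59297532-59297576 (Phf11a) and chr14:59365475-59365519 (Phf11d).
Phf11b: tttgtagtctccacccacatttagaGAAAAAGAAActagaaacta
Phf11a: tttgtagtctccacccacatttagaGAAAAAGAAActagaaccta
Phf11d: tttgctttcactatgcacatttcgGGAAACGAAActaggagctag
The element begins 50 bases before the annotated start in Phf11b and 29 bases before it in Phf11a. Against Phf11b, the aligned 10 bases of Phf11d carry A2G and A6C, counted from 1 at the first capital with the Phf11b base first. They do not match the element, but hold GAAACGAAA, in which the GAAA parts stand closer together than in the element. This closer spacing was not searched for in the other windows and is not particular to Phf11d. The bases before the start of Slfn4 also hold GAAA parts so spaced, on the opposite strand. The alignment of this 45-base stretch holds a gap. These 10 bases lie across the annotated start of Phf11d, and its stretch ends 15 bases after it. All 250 bases before the annotated start of Phf11b, at chr14:59341331-59341580 on the minus strand, give the longer context.
Phf11b: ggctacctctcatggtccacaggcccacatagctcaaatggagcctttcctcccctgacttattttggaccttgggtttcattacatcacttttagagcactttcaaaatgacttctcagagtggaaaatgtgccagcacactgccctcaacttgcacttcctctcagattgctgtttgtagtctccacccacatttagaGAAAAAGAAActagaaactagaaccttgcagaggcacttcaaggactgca

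Of the Trim30 genes, Trim30d and Trim30b had folds near each other and Trim30c a smaller one. Trim30d was 2.47-fold higher with UBE1L, at a log2 fold of 1.31 ± 0.27 (approximate SE) and, by edgeR in the authors' deposited table, an adjusted p of 2.56e-05, on 5.46 CPM or roughly 136 reads a library. Trim30b was 2.43-fold higher, at 1.28 ± 0.47 log2 units with, by edgeR in the authors' deposited table, an adjusted p of 0.0238. It had the lowest abundance of the 9 genes, 1.63 CPM or roughly 40.8 reads, and the widest approximate interval, 1.28-fold to 4.62-fold. Trim30c was 1.65-fold higher, at 0.72 ± 0.17 log2 units with, by edgeR in the authors' deposited table, an adjusted p of 2.29e-04, and was the most abundant of the family at 8.59 CPM, roughly 215 reads. Its fold equalled the median of the listed higher genes to 2 decimals on the log2 scale.

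The Trim30 transcripts shared less with other genes than those of Phf11a and Phf11b. The shares below pool 6 annotated transcripts for Trim30b, 1 for Trim30c and 3 for Trim30d. Stretches of 50 bases shared with another gene made up 0.5% of Trim30b, 0.7% of Trim30c and 7.5% of Trim30d, and for Trim30d they lay mainly in Trim30a (243 of 3805). The annotated protein of Trim30b has 203 residues, against 513 for Trim30c and 497 for Trim30d. Trim30c and Trim30d are 73.6% identical over 497 aligned positions. Trim30d is closer to Trim30a, a gene that is not listed, at 82.7%.

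The Trim30 starts are shown because the element is present in Trim30d and the aligned place in Trim30c differs from it by 1 base. Trim30a is set beside them as the unlisted relative that also holds the element. Here it lies on the opposite strand and reads as its reverse complement, and the capitals mark its 10 bases or those aligned with them. These stretches are on the minus strand, at chr7:104507871-104507915 (Trim30d), chr7:104400896-104400940 (Trim30c) and chr7:104465210-104465254 (Trim30a).
Trim30d: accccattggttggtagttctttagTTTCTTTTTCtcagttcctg
Trim30c: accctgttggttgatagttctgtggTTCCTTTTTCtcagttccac
Trim30a: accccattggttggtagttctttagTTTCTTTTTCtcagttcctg
Within these 45 bases Trim30a has 0 differences from Trim30d and Trim30c has 8. Of these 8, 1 lies in the element, T3C, counted from the first capital with the Trim30d base first. The element begins 41 bases before the annotated start in Trim30d. The stretch of Trim30c lies 162 to 118 bases before its own annotated start. The windows of Trim30d and Trim30c are 86.9% identical over 176 aligned bases, and those of Trim30d and Trim30a 93.9% over 294. The annotated window of Trim30b aligned with that of Trim30d over 14 bases only and held no match. The 250 bases before the start of Trim30d, at chr7:104507850-104508099 on the minus strand, are these.
Trim30d: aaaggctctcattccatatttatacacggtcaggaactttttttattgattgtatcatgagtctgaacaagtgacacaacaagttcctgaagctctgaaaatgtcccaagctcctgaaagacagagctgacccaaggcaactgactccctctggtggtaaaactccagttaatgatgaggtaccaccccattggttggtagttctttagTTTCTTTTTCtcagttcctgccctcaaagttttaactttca

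The Schlafen genes covered the widest range of abundance, 129.9 times between Slfn2 and Slfn3. Slfn2 was 1.46-fold higher with UBE1L, the smallest fold of the 9, at 0.55 ± 0.07 log2 units (approximate SE) with, by edgeR in the authors' deposited table, an adjusted p of 1.37e-14. With 7.87 log2 CPM (234 CPM, roughly 5861 reads a library) it was the 10th most abundant of the 259 listed genes, and its approximate interval of 1.34-fold to 1.60-fold was the narrowest of the 9. Slfn4 was 2.31-fold higher, at 1.20 ± 0.20 log2 units with, by edgeR in the authors' deposited table, an adjusted p of 1.10e-07, on 7.27 CPM or roughly 182 reads. Slfn3 was 2.06-fold higher, at 1.04 ± 0.41 log2 units with, by edgeR in the authors' deposited table, an adjusted p of 0.0346, on 1.80 CPM or roughly 45.1 reads. Slfn3 is the member nearest to the p limit of the table, where the largest adjusted p is 0.0498, and Slfn2 the member nearest to its fold limit of 0.50.

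Slfn3 and Slfn4 are the closer pair of the family. Their annotated proteins have 640 and 602 residues and are 84.4% identical over 596 aligned positions, while the 378 residues of Slfn2 are 58.6% identical to Slfn3 and 59.7% to Slfn4. Shared 50-base stretches made up 15.6% of Slfn3, 10.8% of Slfn4 and 4.3% of Slfn2, of which Slfn3 and Slfn4 have 252 in common (7.4% of Slfn3 and 6.3% of Slfn4). With 35-base stretches the share of Slfn3 was 26.3%, so its value is less certain than those of Slfn2 and Slfn4.

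No Schlafen member held the response element in its window. The sequences are shown for a 9-base block, ACTTCCTGG, that was picked after the sequences were seen. In all 3 members it begins between 73 and 42 bases before the start. The capitals mark it, and Slfn1, a neighbour that is not listed, carries it as well. The stretches are on the plus strand at chr11:83065032-83065076 (Slfn2), chr11:83175088-83175132 (Slfn4), chr11:83191263-83191307 (Slfn3) and chr11:83116721-83116765 (Slfn1).
Slfn2: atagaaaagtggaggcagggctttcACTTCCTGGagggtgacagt
Slfn4: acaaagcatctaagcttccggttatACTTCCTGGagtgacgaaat
Slfn3: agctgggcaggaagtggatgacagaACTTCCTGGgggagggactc
Slfn1: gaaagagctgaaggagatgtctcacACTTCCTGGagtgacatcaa
The windows of these members are otherwise little alike: the best local alignment covered 11 bases between Slfn2 and Slfn3, 15 between Slfn2 and Slfn4 and, between Slfn3 and Slfn4, the 9 bases of the block itself. The block, read on either strand, occurs in 0.843% of the 32851 promoter windows of the reference table.

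Over the 9 genes, 3 windows held the response element (Phf11a, Phf11b and Trim30d), against 3.44% of all 32851 windows. The windows of Phf11a and Phf11b are 98.2% identical over 279 aligned bases, so they are not separate cases. The NF-kB consensus was found in 0 of the 9 and in 4.51% of all windows. Of the unlisted relatives, Trim30a, Slfn5, Slfn8 and Slfn9 also held the response element. A match describes letters in a window of 300 bases and does not show that a factor binds there.

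**Figure D2:**
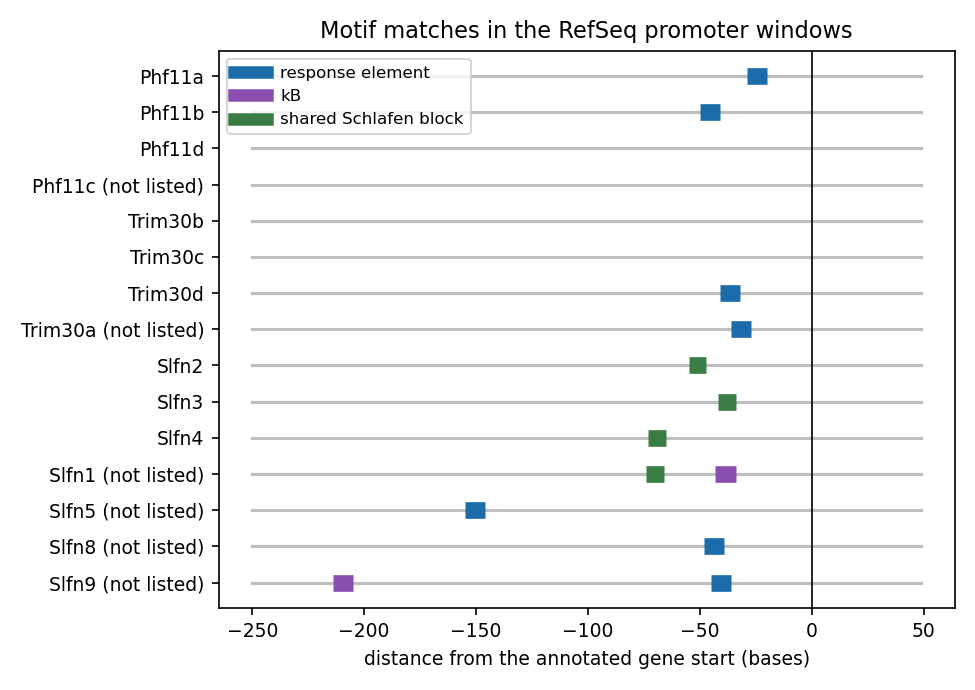
Grey lines are the RefSeq promoter windows of the 9 members and 6 relatives that are not listed, with the annotated gene start at 0 and distance in bases on the horizontal axis; coloured blocks are motif matches on either strand. The response element lies 50 to 20 bases before the start in Phf11a, Phf11b and Trim30d, and the shared Schlafen block 73 to 34 bases before it in Slfn2, Slfn3 and Slfn4.

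Paralogs were next compared with each other within each family, as 9 pairs. In every family the most abundant member had the smallest fold, and in 7 of the 9 pairs the gene with the larger fold had the lower abundance. In 2 pairs the approximate 95% interval of the difference left out 0. Slfn4 exceeded Slfn2 by 0.65 log2 units (0.24 to 1.07), and Phf11b exceeded Phf11d by 0.40 (0.03 to 0.77). At a level of 99% the Slfn4 and Slfn2 pair alone still did, with an interval of 0.11 to 1.20. Phf11b shares transcript sequence with other genes at 47.0% of its stretches, and the part of that in its difference from Phf11d was not tested.

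The other 7 pairs did not differ beyond this error, and most intervals are too wide to show that the paralogs responded alike. Trim30d exceeded Trim30c by 0.59 log2 units (-0.03 to 1.21). Phf11a exceeded Phf11d by 0.60 (-0.22 to 1.43) and Phf11b by 0.20 (-0.66 to 1.07). Slfn3 exceeded Slfn2 by 0.49 (-0.32 to 1.31), and Slfn4 exceeded Slfn3 by 0.16 (-0.73 to 1.06). Trim30b exceeded Trim30c by 0.56 (-0.42 to 1.54). The folds of Trim30d and Trim30b lay within 0.02 log2 units of each other, with an interval of -1.04 to 1.09. These intervals treat the errors of paralogs as independent, which reads divided between near-copies would break.

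**Figure D3:**
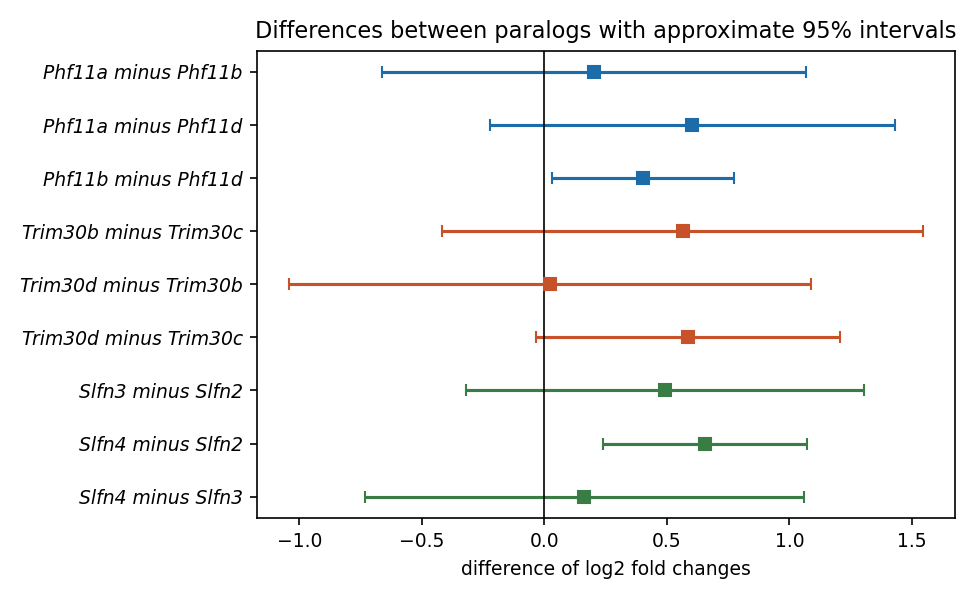
Squares are the differences between the log2 folds of 2 paralogs, the larger fold minus the smaller, and bars their approximate 95% intervals. The bars of Slfn4 minus Slfn2 and of Phf11b minus Phf11d stay to the right of 0, and those of the other 7 pairs cross it.

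Larger folds went with lower abundance over the whole table, so the order within families was set beside it. Across the 216 listed higher genes other than Uba7, Pearson's r between log2 fold and log2 CPM was -0.492 and Spearman's rho -0.546, as a description over genes that share the same libraries and the same limits. Below 1 log2 CPM the smallest listed rise was 0.87 and the median 1.22 (21 genes, among them Phf11a, Trim30b and Slfn3). At 6 log2 CPM or more the smallest was 0.53 and the median 0.60 (20 genes, among them Slfn2). The approximate error had a median of 0.44 in the low range and 0.07 in the high one. How far the table's limits set the order of folds within a family was not tested.

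Set against other listed higher genes within 0.5 log2 CPM, Phf11b, Trim30d and Slfn4 had folds near the top and Trim30c, of a like abundance, did not. A larger fold was found for 1 of 50 such genes around Phf11b, 2 of 61 around Trim30d and 2 of 65 around Slfn4, where the median log2 folds were 0.60, 0.69 and 0.68. Around Trim30c 17 of 58 genes had a larger fold, and around Phf11d 5 of 20. For the least abundant members the numbers were 3 of 17 (Phf11a), 4 of 18 (Trim30b) and 13 of 20 (Slfn3). Around Slfn2 there were only 2 such genes, 1 of them with a larger fold. The approximate errors of the 9 were between 0.892 (Trim30c) and 1.20 (Trim30d) times the median error of these genes. Their precision was thus near that of other listed genes at the same read abundance, which for Slfn2 rests on 2 genes. All these genes passed the same fold and p limits, which also bound the approximate error.

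**Figure D4:**
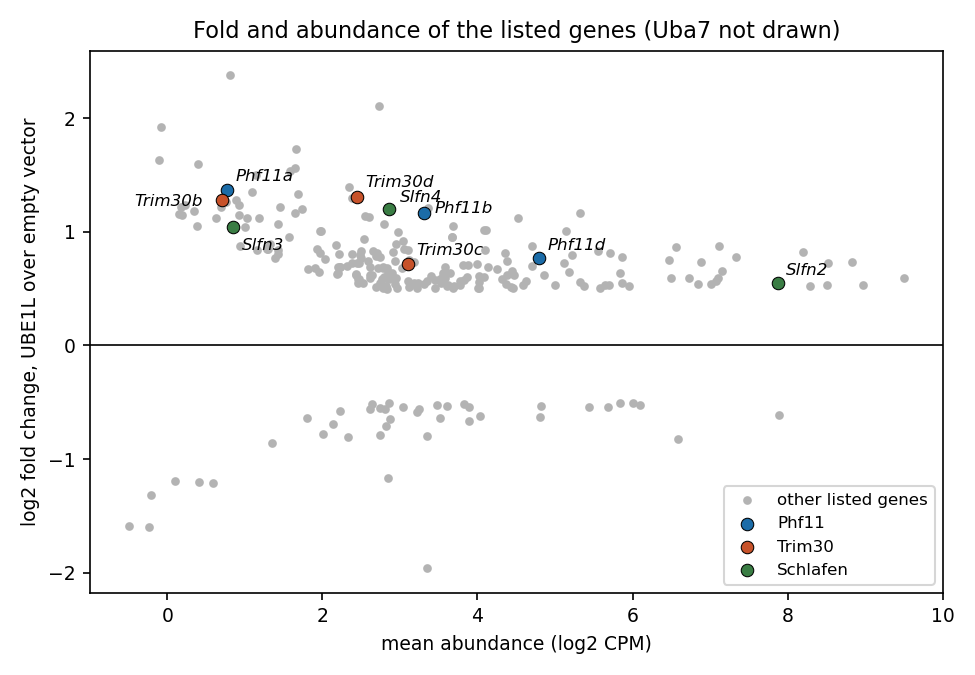
Every listed gene other than Uba7 is a point, with mean abundance (log2 CPM) on the horizontal axis and the deposited log2 fold of UBE1L over empty vector on the vertical axis; the 9 members are coloured by family. Phf11b, Trim30d and Slfn4 lie near the upper edge at 2.45 to 3.32 log2 CPM, and Slfn2 lies near the lower edge at 7.87.

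Levels between genes were compared per length, as mean CPM per kilobase of the annotated transcript with the longest protein. Slfn2 stood at 140.9 CPM per kilobase, followed by Phf11d at 24.6, Phf11b at 8.42, Trim30c at 5.00, Trim30d at 2.87, Slfn4 at 1.84, Phf11a at 1.26, Slfn3 at 0.918 and Trim30b at 0.537. The headers do not say which libraries these levels average, and the spread over libraries is not known here, so it cannot be said which neighbours in this order differ. The order depends on the transcript chosen, since Trim30b has 6 annotated transcripts and Slfn4 has 3.

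**Figure D5:**
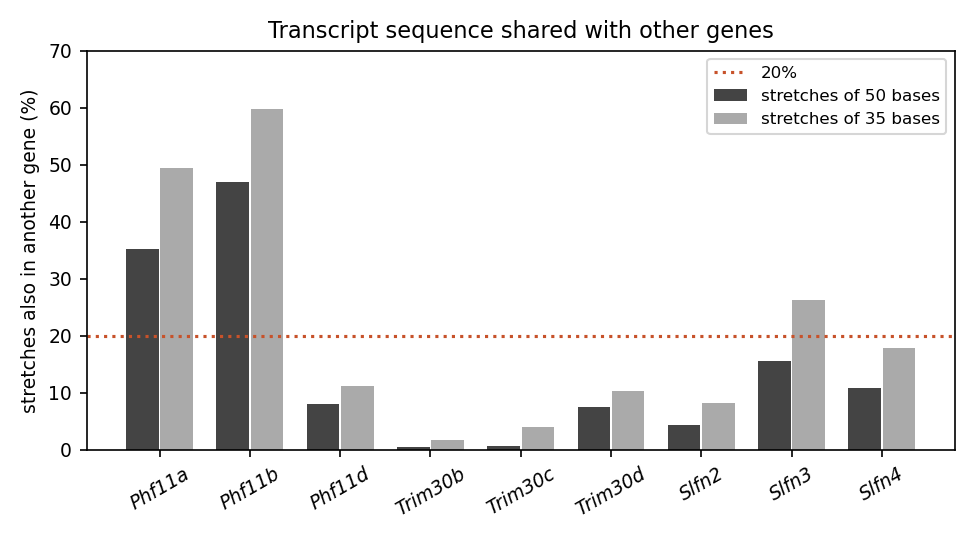
Bars give the percentage of each gene's transcript stretches of 50 bases (dark) and 35 bases (light) found in transcripts of other genes as well. Stretches were pooled over the annotated transcripts of a gene, which are 4 for Phf11d and 1 each for Phf11a and Phf11b. Phf11a (35.2%) and Phf11b (47.0%) exceed the dotted line at 20% with 50 bases, and Slfn3 (26.3%) joins them with 35.

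Each cluster holds both listed members and unlisted relatives, in the gene order of RefSeq on GRCm38.p6. On chromosome 14 Phf11a, Phf11b and Phf11d are consecutive, flanked by the pseudogene Phf11 and by Phf11c, and 3 of the 5 genes are listed. On chromosome 7 the order is Trim30b, Trim30c, Trim30a, Trim30d and the pseudogene Trim30e-ps1, again with 3 of 5 listed. On chromosome 11 3 of 9 Schlafen genes are listed, Slfn2, Slfn4 and Slfn3, with the unlisted Slfn1 between Slfn2 and Slfn4. Slfn5, Slfn9, Slfn8, Slfn10-ps and Slfn14 are not listed either. Of 19 relatives looked up, which included Trim5, Trim12a, Trim34a and Trim21, 0 were in the authors' deposited table. The 3 protein-coding genes on each side of each cluster, among them Setdb2 beside Phf11c, are not listed. A gene that is not listed was not tested, lay below the fold limit or missed the p limit, and is not counted as unchanged. The share of all tested genes that are listed is unknown, since the number tested was not given. The constant linking p-value, rank and adjusted p-value, rounded up, was 6414, against 259 listed genes. If the number tested is near it, few genes of any short list would be listed, so nothing is read from these counts.

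The upstream and parallel parts of the interferon programme were looked up in the same way. A list of 42 receptors, kinases, transcription factors and regulators of interferon and LPS signalling includes Irf9, Irf7 and Tlr4. Of these 42 genes, 0 are in the authors' deposited table. Here too the share of all tested genes that are listed is unknown, and nothing is read from the counts of listed genes in this paragraph. The list is not complete. Outside it, and named after its value was seen, Lbp (LPS-binding protein) was higher by 0.59 log2 units in the authors' deposited table. From 47 interferon-stimulated effectors of other families 10 are listed, all higher, with a median log2 fold of 0.72 in the authors' deposited table. The largest of these were the speckled protein genes Sp140 (1.14) and Sp110 (1.13), Ifit1bl1 (1.01) and Gbp5 (0.85), on the log2 scale of the authors' deposited table. Phf11b (1.17), Slfn4 (1.20), Trim30d (1.31), Trim30b (1.28) and Slfn3 (1.04) lay within 0.2 log2 units of Sp140 in the authors' deposited table. Trim30b and Slfn3 have wide approximate intervals. The authors' deposited table gives Sp140 and Sp110 an abundance of 2.55 and 2.61 log2 CPM. Sp140 and Sp110 each share over 20% of their 50-base stretches with other genes, so their values are uncertain too. These lists were drawn up with earlier results of these data known.

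Slfn and Trim30 genes are also expressed by leukocytes, so markers of other cell types were looked up. Of 10 macrophage and leukocyte markers 0 are in the authors' deposited table, among them Ptprc, Adgre1 and Csf1r, and of 7 mammary epithelial markers (Epcam, Cdh1 and keratins) 0. With the share of all tested genes that are listed unknown, nothing is read from such counts in short lists. Outside these lists, and named after their values were seen, other genes of such cells are listed. Mpeg1, a perforin-like gene of macrophages, was higher with UBE1L by 0.89 log2 units in the authors' deposited table. The epithelial claudin gene Cldn4 (0.82) and the milk protein genes Ltf (0.76) and Wfdc18 (0.60) were also higher on the log2 scale of the authors' deposited table. The epidermal keratin gene Krt6a (-0.82) and the milk fat globule gene Btn1a1 (-0.56) were lower on the log2 scale of the authors' deposited table. From 5 fibroblast markers the authors' deposited table lists 3, each higher with UBE1L: Col3a1 (0.82), Col1a1 (0.52) and Dcn (0.51 log2 units). The part of any of these in the folds of the 9 genes was not tested. Because the table lists changed genes alone, it does not show at what level the markers of mammary epithelium or of leukocytes stood, and the labelled cell type could not be checked from it. In bulk RNA, fewer cells that express a gene and less RNA per cell cannot be told apart.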

How the data were processed

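Stranded poly-A RNA libraries were read as single reads of 50 bases, per the labels' protocols. The submitters' processing notes name Trimmomatic 0.36, Salmon 0.9.1 and edgeR, without saying in which role; build, annotation, filters and model were not given in the sources used here. As deposited by the authors, the table holds a log2 fold change, a mean log2 CPM, a likelihood-ratio score, its p-value and an adjusted p-value for each of 259 genes, and no value per library. The logarithms were taken as base 2, as the tool of the authors, edgeR, writes them. The deposited p-value equals the upper chi-square tail of the score with 1 degree of freedom to within a relative 6.60e-13. The header of the adjusted p-value names both Bonferroni and FDR. Where the p-value is above 0, the adjusted value equals it times a constant over a whole-number rank, such as 1053 for Phf11a. The adjusted values are thus not a plain Bonferroni product, and which adjustment by rank was used was not given. Where the text writes edgeR beside an adjusted p, it names the tool of the notes, not the adjustment. The planned count test needs values per library and was replaced by description. Depth per library is unknown from the table, so read numbers rest on the stated 25000000 reads and cover no library's own depth.

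The approximate standard error is the absolute log2 fold over the square root of the score, and 95% intervals are normal. Shared stretches came from GENCODE M21 transcripts on the same strand, and proteins were translated from its coding annotation and aligned globally (BLOSUM62, gap open 10, extend 0.5). Promoter windows are those of RefSeq, and all 9 symbols matched. The error formula, stretch search and motif search were tested on simulated data. For the error formula these were Poisson counts, without further spread between libraries and without selection on fold or p. How well the approximate intervals hold for the listed genes was therefore not tested. Named genes are the 9 members, Uba7, listed relatives by symbol, 3 protein-coding neighbours on each side of a cluster, and up to 4 listed genes of each pathway list. Others were named after their values were seen, where the text says so. No gene was named for likeness, since 1 comparison gives no pattern over samples. Members and lists were chosen with earlier results of these data known. Python 3.11.15, scipy 1.17.1 and Biopython 1.88 were used. Another motif that was searched is not reported here.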

Additional observations from a re-analysis of the deposited data

How the results depend on the processing

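All 9 members met the limits of the authors' table. With an adjusted p under 0.01, 7 were left (Trim30b and Slfn3 lost), as against 70.5% of the 217 listed higher genes, the base of the other shares here. A log2 fold of at least 1 left 6 members (23.5% of the higher genes), an abundance minimum of 2 log2 CPM left 6 (77.4%), and dropping genes with 20% or more shared stretches left 7 (91.2%). A Bonferroni limit over 6414 left 5 (42.4%, or 35.5% of all 259 listed genes), without Phf11a, Trim30b, Trim30c and Slfn3. This 6414 is the constant linking p-value, rank and adjusted p-value, rounded up. The number of genes tested was not given in the sources used here and may differ from it. Subtracting the median log2 fold of the listed genes, 0.66, also left 5 past the fold limit (14.7%), without Phf11d, Trim30c, Slfn2 and Slfn3, and turned Slfn2 to -0.11. This offset treats the typical listed rise as scaling and is not an estimate of a scaling error. A 99% interval or separate 95% intervals left 1 paralog pair apart, Slfn4 and Slfn2, in place of 2. Standard errors taken from the p-value equal those from the score by construction and test nothing. The response element was in 3 member promoters under the looser GAAANNGAA, against 8.56% of all windows. Upstream of the start alone it was in 3 as well, against 2.98%. Local alignment gave a median identity of 81.1% over the pairs, against 77.1% globally, and 35-base stretches put 3 members past 20% in place of 2. Over the 5 settings applied to single genes, 29 of 45 values stayed past the setting's limit, 15 did not and 1 changed sign. No paired analysis was possible because single libraries have no values in the table, and for that reason other scalings, count filters and left-out replicates were not run. What depth limits could not be measured, since the depth of each library is unknown.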
